A study of Arabidopsis thaliana with 12 samples.

Results

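The 9 genes described here are the MADS-box transcription factor genes that specify the organs of the Arabidopsis flower. They were chosen by gene identifier, as AP1 (AT1G69120), CAL (AT1G26310), AP3 (AT3G54340), PI (AT5G20240), AG (AT4G18960), SEP1 (AT5G15800), SEP2 (AT3G02310), SEP3 (AT1G24260) and SEP4 (AT2G03710). They are 9 of the 27715 genes in the deposited table, and each of the 9 passed the filter on low counts. RNA was sequenced from Arabidopsis thaliana flowers of stages 1 to 12 in 4 groups of 3 libraries, with 9 flowers pooled per library. The groups were the wild type at 22 °C, the wild type at 38 °C, an XBAT31 mutant at 22 °C and the XBAT31 mutant at 38 °C, and the exposure to heat lasted 3 hours. XBAT31 codes for a RING-type ubiquitin ligase. The labels give neither the allele nor the accession of the mutant, nor whether the line carries other insertions or is a single isolate, and they give no plant age. The replicates are labelled biological, with no further word on whether they came from separate plants or days.

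Library totals ran from 44983198 to 63088433 counts. The level of XBAT31 was 95.3 to 110 FPKM (fragments relative to the length of the transcript and the depth of the library) in the 6 wild-type libraries and 45.3 to 55.7 FPKM in the 6 mutant libraries, so the transcript was reduced in the mutant but not absent. Its log2 difference between mutant and wild type was -0.93 (SE 0.08) at 22 °C and -1.15 (SE 0.08) at 38 °C, with edgeR adjusted p of 8.61e-04 and 6.98e-05. The flower label was checked with CRC, a carpel gene, STK, an ovule gene, and A9, a tapetum gene, whose lowest levels over the 12 libraries were 12.2, 45.9 and 17.3 FPKM. In a principal component analysis the temperatures separated along component 1 (31.7% of the variance). Component 2 (14.4%) set 3 libraries apart: mutant replicate 2 at 22 °C (-100), replicate 1 of the heated mutant (-48.2) and replicate 2 of the heated wild type (-48.1), while the lowest of the other 9 libraries lay at -5.20. These 3 libraries are called the libraries that stood apart.

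In the ABC model of the flower, combinations of MADS-domain proteins decide which organ forms in each whorl. Class A activity, to which AP1 belongs, gives sepals, classes A and B together give petals, classes B and C give stamens, and class C gives carpels. The class B proteins AP3 and PI bind DNA as a heterodimer, AG is the class C protein, and the SEPALLATA proteins, called class E, join the others in tetramers that bind pairs of CArG boxes. AP1 and its close paralog CAL also act earlier, when a meristem takes on floral identity, downstream of the transcription factor LFY. Heat can disturb flower development in many plants, and the comparisons ask how the transcripts of these regulators stood after a short exposure and whether loss of XBAT31 altered them.

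The sequences shown first are those of the 2 pairs with the most alike coding sequences. Reads can be shared between genes only along identical stretches, and how many were shared here was not tested. Over the aligned coding sequence SEP1 and SEP2 were 86.4% identical, with a longest identical run of 32 bases, and AP1 and CAL were 84.3% identical, with a longest run of 56 bases. AP3 and PI were 64.0% identical. The first 180 coding bases, which code for most of the DNA-binding MADS domain, differed at 15 positions between AP1 and CAL and at 19 positions between SEP1 and SEP2, and in the lines that follow the differing bases are in capitals. These and the upstream sequences further on were read 5′ to 3′ on the coding strand from the RefSeq annotation of the TAIR10.1 genome. The stretches lie at chr1:25985923-25986102 for AP1, chr1:9103331-9103510 for CAL, chr5:5153588-5153767 for SEP1 and chr3:466508-466687 for SEP2, all on the minus strand.
AP1: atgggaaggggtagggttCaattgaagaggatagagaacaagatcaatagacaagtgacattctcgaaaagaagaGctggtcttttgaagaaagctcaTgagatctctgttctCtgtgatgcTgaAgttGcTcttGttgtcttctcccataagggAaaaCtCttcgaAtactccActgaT
CAL: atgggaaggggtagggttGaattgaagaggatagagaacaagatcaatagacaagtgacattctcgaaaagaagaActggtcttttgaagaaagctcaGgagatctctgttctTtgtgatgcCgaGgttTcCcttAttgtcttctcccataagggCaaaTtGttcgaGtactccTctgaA
SEP1: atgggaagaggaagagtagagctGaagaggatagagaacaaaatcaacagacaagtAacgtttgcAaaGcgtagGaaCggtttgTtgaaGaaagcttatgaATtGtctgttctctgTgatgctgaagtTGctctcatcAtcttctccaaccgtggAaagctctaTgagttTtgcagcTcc
SEP2: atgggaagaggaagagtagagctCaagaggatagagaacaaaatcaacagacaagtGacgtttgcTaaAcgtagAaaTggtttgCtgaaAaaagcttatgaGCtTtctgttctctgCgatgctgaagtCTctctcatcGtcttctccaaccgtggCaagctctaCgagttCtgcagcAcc

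The 250 bases before the annotated start of AP1 and CAL follow, with each match to CCANTG, the core of the sites bound by LFY, in capitals. The window of AP1 is chr1:25986350-25986599 and that of CAL is chr1:9103645-9103894, both on the minus strand of TAIR10.1.
AP1: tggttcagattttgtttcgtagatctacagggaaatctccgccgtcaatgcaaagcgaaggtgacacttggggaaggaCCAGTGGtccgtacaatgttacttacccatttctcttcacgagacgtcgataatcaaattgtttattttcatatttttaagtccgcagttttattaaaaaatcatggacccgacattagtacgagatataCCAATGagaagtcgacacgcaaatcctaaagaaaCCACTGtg
CAL: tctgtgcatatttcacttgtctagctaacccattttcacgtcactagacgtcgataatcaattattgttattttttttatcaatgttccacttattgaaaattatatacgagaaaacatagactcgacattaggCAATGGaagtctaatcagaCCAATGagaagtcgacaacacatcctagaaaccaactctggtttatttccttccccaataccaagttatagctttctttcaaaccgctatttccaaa

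The core was searched on both strands. AP1 held 4 matches, of which those at -172 and -171 overlap on opposite strands and the others begin at -42 and -8 from the start, and CAL held 2, at -116 and -97. SEP2 and SEP4 held 1 each, so that 4 of the 9 genes had a match in a window of which 20.8% of 27443 promoters held it. The CArG box, the element bound by MADS-domain proteins, was in 0 of the 9 windows and in 2.52% of all promoters, and the heat shock element core, taken as NGAAN followed by NTTCN, was in 0 of the 9 and in 9.48% of all. These matches describe letters in these windows only.

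By their level per transcript length the 9 genes fell into 4 tiers. SEP3 was the most abundant, with a mean of 170 FPKM over the 12 libraries, above that of 97.7% of all genes. PI (110 FPKM), SEP2 (103 FPKM), AP3 (97.8 FPKM) and SEP1 (84.9 FPKM) followed, with SDs over the 12 libraries of 14.9, 15.2, 11.3 and 7.39 FPKM. Differences between neighbours in that order were not tested. AP1 (40.8 FPKM) and AG (39.4 FPKM) stood close together below them, and SEP4 (6.10 FPKM) and CAL (6.05 FPKM) lay lowest, near the middle of all genes, with 46.0% and 45.9% of genes below them. CAL rested on 113 to 504 counts per library and SEP4 on 336 to 749, the lowest of the 9, beside 8606 to 13415 for SEP3.

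The genes also differed in how much they varied. The highest library exceeded the lowest 3.85-fold for CAL, 3.43-fold for AP1 and 2.01-fold for SEP4, whereas the same ratio was 1.61 for PI, 1.53 for SEP2, 1.41 for AP3, 1.38 for AG, 1.32 for SEP1 and 1.29 for SEP3. The summed level of the 9 genes was 673 ± 15.5 FPKM (SD, n = 3) in the wild type at 22 °C, 636 ± 20.0 in the wild type at 38 °C, 694 ± 31.9 in the mutant at 22 °C and 627 ± 16.5 in the mutant at 38 °C. SEP3 made up 23.3% to 30.0% of that sum, and AP1 made up 2.51% in mutant replicate 2 at 22 °C and 8.44% in wild-type replicate 1 at 22 °C, its lowest and highest shares.

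**Figure D1:**
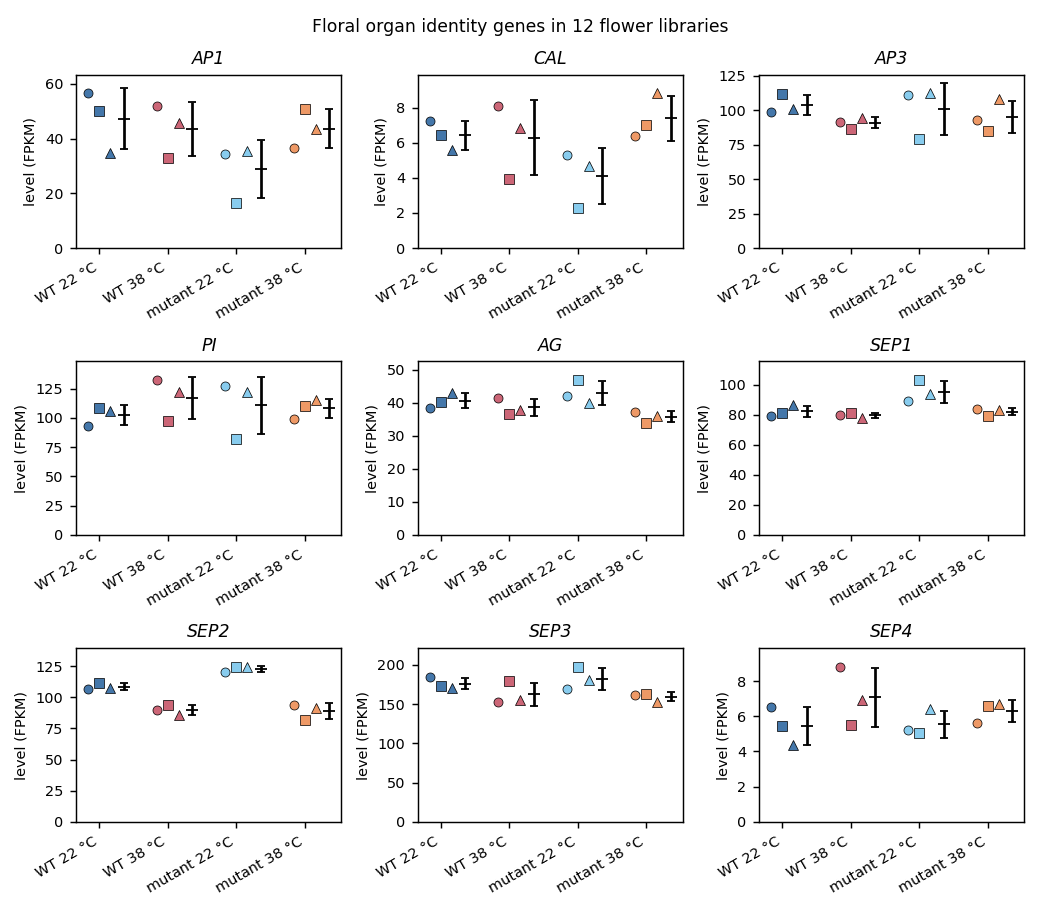
Level in FPKM of each of the 9 genes in the 12 flower libraries, by group; symbols mark replicates 1 (circle), 2 (square) and 3 (triangle), and bars show the mean and SD of 3 libraries. AP1 and CAL spread widely within groups and lie lowest in mutant replicate 2 at 22 °C, while the 38 °C levels of SEP2 lie below its 22 °C levels in both genotypes.

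AP1 and CAL, the class A and floral meristem genes, had no change that passed the edgeR test in any comparison. The gene AP1 lies at chr1:25982330-25986313 on the minus strand and CAL at chr1:9100153-9103603 on the minus strand, in the TAIR10 coordinates of the deposited table. In replicates 1, 2 and 3, AP1 was at 56.6, 50.1 and 34.8 FPKM in the wild type at 22 °C, and at 52.0, 32.8 and 45.6 FPKM in the wild type at 38 °C. Mutant flowers had 34.4, 16.5 and 35.6 FPKM at 22 °C and 36.7, 50.6 and 43.6 FPKM at 38 °C. The wild-type groups overlapped, and in the mutant each library at 38 °C was above each at 22 °C, the 16.5 FPKM of replicate 2 being the lowest of the 12 values.

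CAL lay at a lower level than AP1, with the same order of replicates in the wild-type groups but not in the mutant groups. It was at 7.26, 6.45 and 5.60 FPKM in the wild type at 22 °C, 8.11, 3.94 and 6.83 FPKM in the wild type at 38 °C, 5.32, 2.29 and 4.65 FPKM in the mutant at 22 °C, and 6.36, 6.99 and 8.83 FPKM in the heated mutant. Here, too, the mutant libraries at 38 °C were all above those at 22 °C. The log2 change with heat in the mutant was 0.74 for CAL (95% interval 0.03 to 1.45, adjusted p = 0.117) and 0.49 for AP1 (-0.13 to 1.11, adjusted p = 0.231), by edgeR's quasi-likelihood test. Without mutant replicate 2 at 22 °C these values were 0.49 (adjusted p = 0.246) and 0.24 (adjusted p = 0.477). CAL passed with DESeq2 (adjusted p = 0.0412) and with libraries scaled on reference genes (log2 0.97, adjusted p = 0.0404), and without the 3 libraries that stood apart the adjusted p was 0.0748 for CAL and 0.212 for AP1. In the wild type the changes with heat were -0.21 for AP1 (-0.83 to 0.41) and -0.12 for CAL (-0.82 to 0.57), and both turned positive, at 0.12 and 0.20, with scaling on reference genes.

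Mutant replicate 2 at 22 °C was the extreme library for most of the 9 genes. AP1, CAL, AP3 and PI were at their lowest of 12 there, AG, SEP1, SEP2 and SEP3 were at their highest, and SEP4 ranked 11 from the top. The 20 photosynthetic tissue markers, on average 0.93 below their 12-library mean on the log2(FPKM + 1) scale in that library, ranged from -0.28 to 0.33 in the other 11. The summed level of that list was 8787 to 14862 FPKM in the wild type at 22 °C, 9495 to 11395 in the wild type at 38 °C, 5230 to 10421 in the mutant at 22 °C and 9790 to 12497 in the mutant at 38 °C. FUL, the MADS-box gene closest to AP1 and CAL in sequence, was at 22.6 FPKM in that library and 37.3 and 42.3 FPKM in the other two of its group, but was nearly as low in replicate 2 of the heated wild type (22.8 FPKM) and in wild-type replicate 3 at 22 °C (23.1 FPKM). The carpel and ovule genes SHP1 and SHP2, at 69.7 and 81.8 FPKM, had their highest levels there. On the same log2 scale the 10 dividing cell markers (0.43 above their mean) and 26 upstream regulators of floral organ identity (0.21 above) were also at their highest of 12. The tapetum markers (-0.34) and maturing pollen markers (0.23) lay within the range of the other libraries. In whole flowers, fewer cells of a type and less RNA per cell cannot be told apart, and the part of tissue composition in these levels was not tested.

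**Figure D2:**
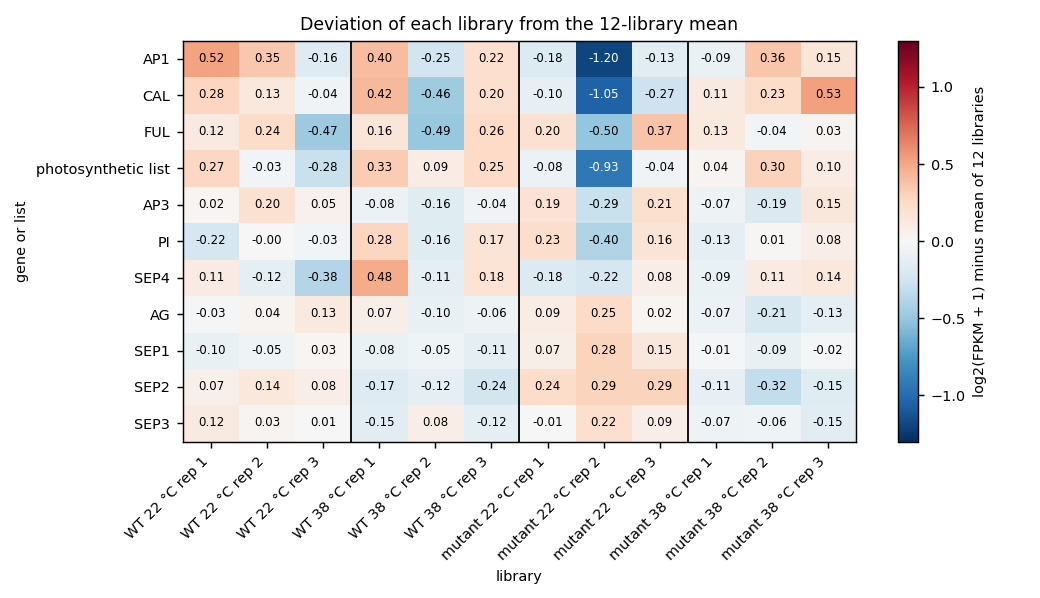
Deviation of each library from the 12-library mean on the log2(FPKM + 1) scale for the 9 genes, FUL and the mean of 20 photosynthetic tissue markers; columns are libraries by group, blue is below and red above the mean. In mutant replicate 2 at 22 °C, AP1 (-1.20), CAL (-1.05) and the photosynthetic list (-0.93) are low while AG, SEP1, SEP2 and SEP3 are above their means.

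The class B genes AP3 and PI, whose products act as a dimer in petals and stamens, stayed within 1.61-fold over the 12 libraries and passed the edgeR test in no comparison. AP3 (chr3:20119173-20121170, minus strand) was at 98.7, 112 and 101 FPKM in the wild type at 22 °C and at 91.8, 86.7 and 94.2 FPKM at 38 °C. In the mutant it was at 111, 79.5 and 112 FPKM at 22 °C and at 92.8, 85.1 and 108 FPKM at 38 °C. The wild-type groups of AP3 did not overlap, with lower values at 38 °C, but the log2 change of -0.29 (95% interval -0.57 to 0.001) had an edgeR adjusted p of 0.121 and was 0.05 with scaling on reference genes. In the mutant the groups overlapped and the change was -0.19 (-0.48 to 0.09), or 0.03 with that scaling.

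PI (chr5:6829042-6831515, plus strand) was at 93.1, 108 and 106 FPKM in the wild type at 22 °C and 132, 97.3 and 122 FPKM at 38 °C. In the mutant it was at 127, 82.3 and 122 FPKM at 22 °C and 99.2, 110 and 115 FPKM at 38 °C. The groups overlapped in both genotypes. The log2 changes with heat were 0.10 (-0.27 to 0.46) in the wild type and -0.14 (-0.51 to 0.22) in the mutant, the latter 0.08 with scaling on reference genes. The ratio of AP3 to PI within a library was 1.02 ± 0.0563 (SD, n = 3) in the wild type at 22 °C and 0.786 ± 0.0991 in the wild type at 38 °C, with ranges of 0.952 to 1.06 and 0.694 to 0.891 that did not overlap. In the mutant it was 0.920 ± 0.0469 at 22 °C and 0.883 ± 0.0926 at 38 °C, with ranges of 0.872 to 0.966 and 0.776 to 0.937 that did. The exact two-sided permutation p was 0.1 in the wild type, the smallest possible, and 0.7 in the mutant. Whether the ratio moved differently in the genotypes was not tested.

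AG, the class C gene of stamens and carpels, fell with heat in the mutant under the trimmed mean scaling. It lies at chr4:10382856-10388539 on the plus strand. Its levels in the mutant were 42.0, 46.8 and 40.0 FPKM at 22 °C and 37.3, 33.9 and 35.8 FPKM at 38 °C, and these groups did not overlap. The log2 change was -0.37 (SE 0.08, 95% interval -0.55 to -0.19, edgeR adjusted p = 0.0072), but -0.15 (adjusted p = 0.170) with libraries scaled on reference genes. Without mutant replicate 2 at 22 °C, where AG was highest, it was -0.28 (adjusted p = 0.0524). In the wild type AG was at 38.5, 40.3 and 43.0 FPKM at 22 °C and at 41.4, 36.7 and 37.6 FPKM at 38 °C. These groups overlapped, and the change of -0.17 (-0.35 to 0.007, adjusted p = 0.135) was 0.16 with scaling on reference genes.

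The clearest change with heat among the 9 genes was that of SEP2, a class E gene, which fell in both genotypes under the trimmed mean scaling and in the mutant also with scaling on reference genes. SEP2 (chr3:464279-467074, minus strand) was at 107, 112 and 108 FPKM in the wild type at 22 °C and at 90.1, 93.5 and 85.6 FPKM at 38 °C. In the mutant it was at 120, 124 and 124 FPKM at 22 °C and at 94.2, 81.4 and 91.2 FPKM at 38 °C. In both genotypes every library at 38 °C was below every library at 22 °C. The log2 change in the wild type was -0.37 (SE 0.07, 95% interval -0.52 to -0.22, edgeR adjusted p = 0.0018), a level 0.774 of that at 22 °C. With scaling on reference genes it was -0.04 (adjusted p = 0.752), the only one of the 23 alternative fits in which the wild-type call was lost, and it did not reach 2-fold. In the mutant the change was -0.57 (SE 0.07, -0.72 to -0.43, adjusted p = 2.61e-04), a level 0.672 of that at 22 °C, and it passed under each of 23 alternative fits, with values of -0.61 to -0.35 and adjusted p up to 0.0087.

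SEP1, the closest paralog of SEP2, passed as lower with heat in the mutant under the trimmed mean scaling. It did not pass in the wild type, and neither did the difference between these responses. It lies at chr5:5151334-5154154 on the minus strand and overlaps AT5G15790 on the opposite strand, so that reads of that gene may count towards it; none of the other 8 genes overlaps another gene. SEP1 was at 79.1, 81.6 and 86.4 FPKM in the wild type at 22 °C, 79.8, 81.5 and 78.1 FPKM in the wild type at 38 °C, 89.1, 103 and 93.7 FPKM in the mutant at 22 °C and 83.8, 79.3 and 83.3 FPKM in the heated mutant. The mutant groups did not overlap and the wild-type groups did. The log2 change was -0.32 in the mutant (SE 0.07, 95% interval -0.48 to -0.16, edgeR adjusted p = 0.0079) and -0.14 in the wild type (-0.30 to 0.01, adjusted p = 0.157). With scaling on reference genes the values were -0.10 (adjusted p = 0.377) and 0.19, and without mutant replicate 2 at 22 °C the mutant value was -0.24 (adjusted p = 0.0578).

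The ratio of SEP1 to SEP2 within a library does not depend on how libraries are scaled. It was 0.759 ± 0.0392 (SD, n = 3) in the wild type at 22 °C and 0.890 ± 0.0207 at 38 °C, and 0.776 ± 0.0477 in the mutant at 22 °C and 0.926 ± 0.0433 at 38 °C. The 6 libraries at 22 °C ran from 0.730 to 0.830 and the 6 at 38 °C from 0.871 to 0.974, so that the temperatures did not overlap in either genotype. The ratio does not tell which of the paralogs changed, and its shift did not pass the test that follows. An exact two-sided permutation test of the log2 ratio gave p = 0.1 in each genotype, the smallest that 3 libraries against 3 allow, and an adjusted p of 0.25 over the 10 ratio tests made (5 ratios in 2 genotypes).

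**Figure D3:**
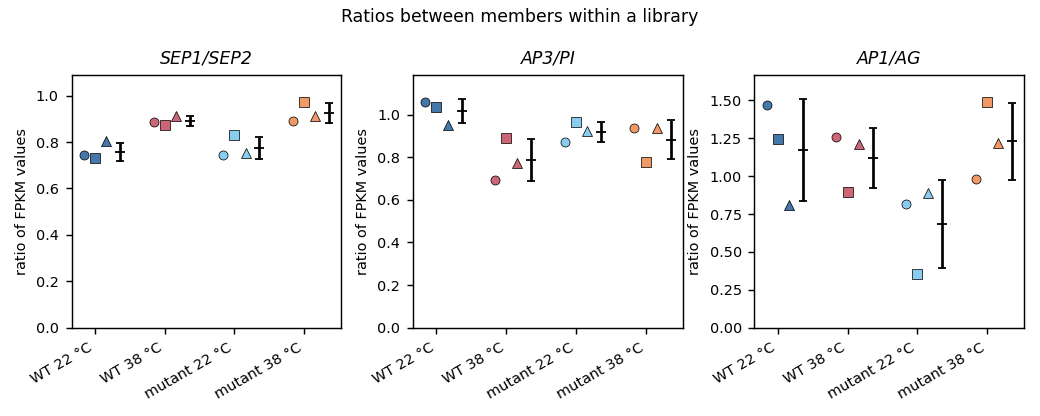
Ratio of FPKM values within each library for SEP1 to SEP2, AP3 to PI and AP1 to AG, by group; symbols mark replicates 1 (circle), 2 (square) and 3 (triangle) and bars show mean and SD of 3 libraries. SEP1 to SEP2 lies at 0.730 to 0.830 at 22 °C and at 0.871 to 0.974 at 38 °C, and AP1 to AG is lowest, at 0.352, in mutant replicate 2 at 22 °C.

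SEP3 (chr1:8593637-8596105, minus strand), whose protein bridges the other classes in tetramers, was the steadiest of the 9. It was at 184, 174 and 170 FPKM in the wild type at 22 °C, 153, 180 and 156 FPKM in the wild type at 38 °C, 169, 198 and 180 FPKM in the mutant at 22 °C and 162, 163 and 153 FPKM in the heated mutant. The mutant groups did not overlap, and the wild-type groups did because of wild-type replicate 2 at 38 °C. In the mutant its log2 change was -0.30 (SE 0.08, 95% interval -0.48 to -0.12, edgeR adjusted p = 0.0224), and -0.08 (adjusted p = 0.577) with scaling on reference genes. The call was lost in 9 of the 23 alternative fits, among them those that left out mutant replicate 2 at 22 °C (adjusted p = 0.0944), or replicate 1 (0.0530) or replicate 3 (0.0896) of the heated mutant. In the wild type the change was -0.21 (-0.39 to -0.03, adjusted p = 0.0780). It passed when replicate 2 of the heated wild type was left out (-0.28, adjusted p = 0.0314) and was 0.13 with scaling on reference genes.

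SEP4 (chr2:1129268-1131838, plus strand), which overlaps in function with the other SEP genes, was at 6.56, 5.47 and 4.38 FPKM in the wild type at 22 °C and 8.82, 5.49 and 6.93 FPKM at 38 °C. In the mutant it was at 5.21, 5.03 and 6.44 FPKM at 22 °C and at 5.60, 6.58 and 6.73 FPKM at 38 °C. The groups overlapped in both genotypes. Its log2 changes with heat were 0.28 (95% interval -0.16 to 0.72) in the wild type and 0.07 (-0.37 to 0.51) in the mutant, and the wild-type value was 0.60 (edgeR adjusted p = 0.0321) with scaling on reference genes.

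Over the 9 genes, 1 of 9 (SEP2) fell and 0 rose in heated wild-type flowers by edgeR, where 30.7% of the 23585 genes tested were called, 14.3% higher and 16.4% lower. In the mutant 4 of 9 (AG, SEP1, SEP2 and SEP3) fell and 0 rose, where 24.9% of genes were called, 11.3% higher and 13.6% lower. The median log2 change of the 9 was -0.17 in the wild type, beside -0.05 over all genes tested, and -0.19 in the mutant, beside -0.0025. Scaling on 10 reference genes moved the median of all genes by 0.34 in the wild type and 0.22 in the mutant. Under it 1 of 9 rose (SEP4) and 0 fell in the wild type, where 7814 of the 23585 genes tested rose and 1053 fell. In the mutant 1 of 9 rose (CAL) and 1 fell (SEP2), where 5468 genes rose and 1082 fell. The medians of the 9 were then 0.16 and 0.03, beside 0.28 and 0.22 over all genes. Without the 3 libraries that stood apart, SEP2 and SEP3 fell in the wild type and SEP2 in the mutant. Of 23884 genes tested in that fit, 3849 rose and 3421 fell in the wild type, and 2021 rose and 1948 fell in the mutant. Group ranges did not overlap for 2 of the 9 (AP3, SEP2) in the wild type, with 46.7% over all genes, and for 6 of the 9 in the mutant, with 40.6%: AP1 and CAL were higher and AG, SEP1, SEP2 and SEP3 lower at 38 °C.

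Marker lists of other tissues are given beside these counts, and the all-gene values given above for both scalings apply to them too. With DESeq2 4268 of the 23585 genes tested fell in the wild type and 3808 in the mutant. The 10 dividing cell markers summed to 421 to 442 FPKM in the wild type at 22 °C, 211 to 312 in the wild type at 38 °C, 427 to 554 in the mutant at 22 °C and 322 to 405 in the mutant at 38 °C, without overlap between the temperatures in either genotype. By edgeR 9 of the 10 fell in the wild type, and 6 fell and 1 rose in the mutant, and with scaling on reference genes 6 fell in the wild type, and 2 fell and 1 rose in the mutant. The 16 maturing pollen markers, of which 1 fell in the wild type (4 with DESeq2) and 0 passed in the mutant by edgeR (4 with an unadjusted p below 0.05, and 1 fell with DESeq2), summed to 2693 to 5665, 1729 to 3141, 2968 to 3561 and 1010 to 3652 FPKM in the same order of groups, and the 9 tapetum markers to 90.4 to 195, 109 to 215, 91.5 to 177 and 137 to 160 FPKM. Of the 20 photosynthetic tissue markers 5 rose and 0 fell in the wild type, with 9 above 0. In the mutant 4 rose and 0 fell, with 17 above 0. Without the 3 libraries that stood apart, 6 rose in the wild type and 4 in the mutant, with 11 and 12 above 0. Scaled on reference genes, 7 rose in the wild type and 6 in the mutant, with 17 and 20 above 0. All markers were above 0 FPKM in each library except DYT1, an early tapetum regulator, listed at 0 in replicate 3 of the heated wild type and in replicate 3 of the heated mutant. The part of these cell types in the changes of the 9 genes was not tested.

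**Figure D4:**
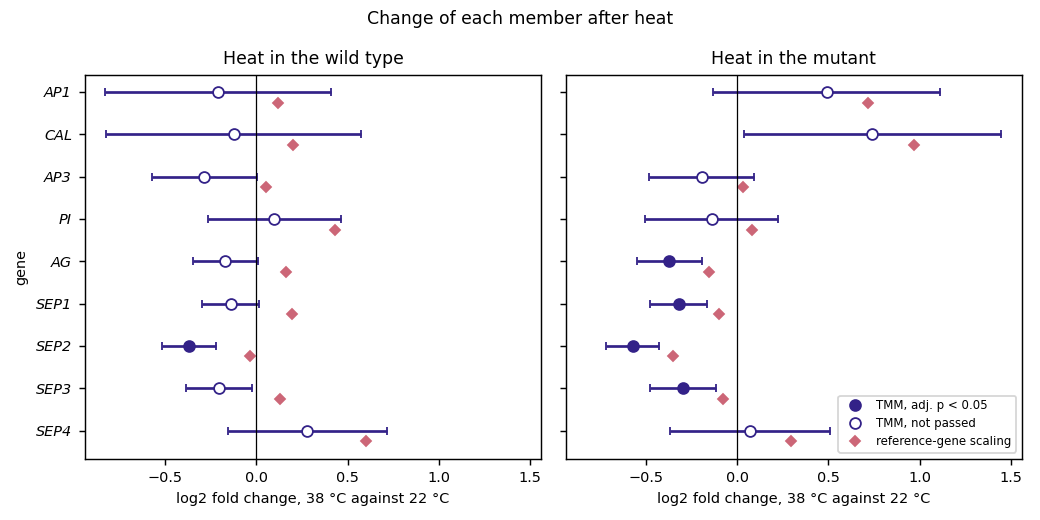
Log2 change with heat of each of the 9 genes in the wild type and the mutant; circles are estimates under the trimmed mean scaling with 95% intervals, filled where the edgeR adjusted p was below 0.05, and diamonds are estimates with scaling on reference genes. SEP2 (-0.37 and -0.57) is filled in both panels and AG, SEP1 and SEP3 in the mutant, while the diamonds lie to the right of every circle.

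Between the genotypes at 22 °C, none of the 9 genes passed the edgeR test, where 0.191% of all genes were called, and none passed with DESeq2 or limma. AP1, SEP1 and SEP2 had an unadjusted p below 0.05. AP1 was at 47.2 ± 11.2 FPKM (SD, n = 3) in the wild type and 28.8 ± 10.7 in the mutant, a log2 difference of -0.73 (95% interval -1.36 to -0.11), with an edgeR adjusted p of 0.670. It was -0.43 without mutant replicate 2 at 22 °C and -0.44 without the 3 libraries that stood apart. CAL differed by -0.68 (-1.38 to 0.03, adjusted p = 0.713), and by -0.37 and -0.38 in those fits. Of the 20 photosynthetic tissue markers, each was below 0 in this comparison, with a median of -0.31, or -0.11 without the 3 libraries, and 0 passed (0 with an unadjusted p below 0.05 in edgeR, and 0 passed with DESeq2). The part of that tissue in these differences was not tested. SEP1 was at 82.3 ± 3.70 FPKM in the wild type and 95.4 ± 7.27 in the mutant, a difference of 0.18 (0.02 to 0.34, adjusted p = 0.673), and SEP2 was at 109 ± 2.72 and 123 ± 2.49 FPKM, a difference of 0.15 (0.001 to 0.29, adjusted p = 0.706). The group ranges of CAL, SEP1 and SEP2 did not overlap, as was so for 12.5% of all genes. For AP3, PI, AG, SEP3 and SEP4 the differences lay between -0.07 and 0.08.

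Between the genotypes at 38 °C, again none of the 9 passed in edgeR, where 9.62% of genes were called, none with DESeq2, and none had an unadjusted p below 0.05. The mutant and wild-type ranges overlapped for all 9, and did not for 29.7% of all genes. The largest differences were -0.21 (95% interval -0.65 to 0.23) for SEP4 and 0.19 (-0.51 to 0.89) for CAL. Under the trimmed mean scaling the interval was -0.16 to 0.16 for SEP1 and -0.20 to 0.09 for SEP2, whereas those of AP1 (-0.65 to 0.59) and CAL were wider. These intervals leave out the choice of scaling. Over the alternative fits the difference ran from -0.11 to 0.04 for SEP1 and from -0.16 to -0.01 for SEP2. With scaling on reference genes the all-gene median moved by -0.11, AG then differed by -0.26 (adjusted p = 0.0556), and none of the 9 passed.

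Whether the response to heat differed between the genotypes was tested as the change in the mutant less that in the wild type. This passed in edgeR for none of the 9, where 1.59% of genes were called, none with DESeq2, and none had an unadjusted p below 0.05. It was 0.87 (SE 0.45, adjusted p = 0.378) for CAL, 0.70 (SE 0.40, adjusted p = 0.422) for AP1 and -0.20 (SE 0.09, adjusted p = 0.316) for SEP2. Without mutant replicate 2 at 22 °C it was 0.57 for CAL and 0.41 for AP1, and without the 3 libraries that stood apart 0.41 and 0.34. The calls of AG, SEP1 and SEP3 in the mutant alone are therefore not shown to differ from the wild type. The differences of AG (-0.20, SE 0.11), SEP1 (-0.18, SE 0.10) and SEP3 (-0.09, SE 0.12) had adjusted p of 0.417, 0.411 and 0.756.

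Across the 12 libraries the distances between the profiles of the 9 genes varied. Genes that vary little can lie near each other for that reason alone. As a description, the distance between a pair is the root mean square difference of their centred log2(FPKM + 1) profiles, which share depth and tissue composition. The smallest distances were those of AG and SEP1 (0.0890) and of SEP1 and SEP3 (0.0958), AP3 and PI lay at 0.171 and AP1 and CAL at 0.186, and the largest was that of AP1 and SEP2 (0.577). The distance of AP1 and CAL was below the spread of AP1 about its own mean (0.441). The ratio of AP1 to CAL was 7.26 ± 0.902 (SD, n = 3) in the wild type at 22 °C and 7.14 ± 1.04 at 38 °C. In the mutant it was 7.10 ± 0.607 at 22 °C and 5.98 ± 1.16 at 38 °C. Over single libraries it ran from 4.94 to 8.33. Among 7046 other genes with a symbol and at least 5 FPKM on average, those nearest AP1 were GSTU18, a glutathione transferase (0.102), NdhN, a subunit of the chloroplast NDH complex (0.102), and GOX1, a glycolate oxidase of photorespiration (0.103), beside a spread of AP1 about its own mean of 0.441. The nearest to AP3 were GLN1.3, a glutamine synthetase (0.0658), LAP1 (0.0888) and ATB' DELTA (0.0912), against its own spread of 0.159. For AG they were EMB2769 (0.0607), NDT2 (0.0609) and SEC6, an exocyst subunit (0.0646), against 0.120, and for SEP3 they were YLS8 (0.0527), CARA (0.0577) and SCE1, a SUMO-conjugating enzyme (0.0583), against 0.110. YLS8 is also 1 of the 10 reference genes. These distances were repeated without mutant replicate 2 at 22 °C, a choice made after seeing the data. The spread of AP1 was then 0.266 and its distance to SEP2 was 0.378, and the largest distance was that of CAL and SEP2 (0.406). The genes nearest AP1 were then NRT1.7, a nitrate transporter (0.0873), FNR1, a chloroplast ferredoxin-NADP reductase (0.0910), and UMAMIT46 (0.0984), with NdhN, GSTU18 and GOX1 at ranks 6, 7 and 9. For AP3, GLN1.3 was again nearest (0.0472) and LAP1 and ATB' DELTA ranked 51 and 46, for AG the nearest was TUB8, a tubulin (0.0565), and for SEP3 it was again YLS8 (0.0541). AP1 and CAL lay at 0.188, AP1 and SEP4 at 0.212, and AP3 and PI at 0.175. AP3 then lay nearer SEP1 (0.107), SEP2 (0.115), AG (0.121) and SEP3 (0.150) than PI. PI then lay nearer AG (0.154) and SEP1 (0.155) than AP3. With and without that library AP3 lay further from PI than its own spread, which was 0.140 without it.

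Of 26 genes that act upstream of floral organ identity, with heat 3 rose and 6 fell in wild-type flowers, and 1 rose and 7 fell in mutant flowers, by edgeR under the trimmed mean scaling. Their median log2 change was -0.06 in the wild type and -0.19 in the mutant. Over all genes tested 14.3% rose and 16.4% fell in the wild type, and 11.3% rose and 13.6% fell in the mutant. With scaling on reference genes 10 of the 26 rose and 0 fell in the wild type, where 7814 of 23585 genes rose and 1053 fell. In the mutant 2 rose and 0 fell, where 5468 genes rose and 1082 fell. Without the 3 libraries that stood apart 1 rose and 2 fell in the mutant, where 2021 of 23884 genes rose and 1948 fell. SWN, which codes for a Polycomb histone methyltransferase that represses floral genes, rose in both genotypes, also with scaling on reference genes: it was at 20.0 ± 0.278 FPKM (SD, n = 3) in the wild type at 22 °C and 28.0 ± 1.24 at 38 °C, and at 21.1 ± 1.68 and 27.9 ± 1.15 FPKM in the mutant. Its log2 changes were 0.39 (SE 0.07, adjusted p = 0.0016) and 0.30 (SE 0.07, adjusted p = 0.0101). ULT1, which counters Polycomb repression of AG, fell under the trimmed mean scaling by 0.71 (SE 0.16, adjusted p = 0.0072) in the wild type and by 0.65 (SE 0.16, adjusted p = 0.0146) in the mutant, but the adjusted p was 0.129 and 0.0929 with scaling on reference genes and, in the mutant, 0.0672 without replicate 2 at 22 °C. LFY, the activator of AP1, did not pass: it was at 2.69, 3.46 and 3.18 FPKM in the wild type at 22 °C and 4.92, 5.48 and 5.57 FPKM at 38 °C, with a log2 change of 0.68 (SE 0.26, adjusted p = 0.0707), or 1.02 (adjusted p = 0.0114) with scaling on reference genes. In the mutant LFY was at 3.13, 5.16 and 2.81 FPKM at 22 °C and at 4.92, 3.11 and 5.86 FPKM at 38 °C, which overlapped, with a change of 0.21 (SE 0.26, adjusted p = 0.586). AP2, the other class A gene and not a MADS-box gene, did not pass either, with changes of 0.03 and 0.20, and passed in both genotypes with scaling on reference genes (0.36 and 0.42).

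Of 23 other MADS-box genes known from flowers, 19 were tested. With heat 1 rose and 4 fell in the wild type and 1 rose and 6 fell in the mutant, under the trimmed mean scaling, with medians of -0.27 and -0.33. With scaling on reference genes the counts were 3 and 3 in the wild type and 2 and 3 in the mutant, and without the 3 libraries that stood apart 3 fell in the mutant. The all-gene values given above for each scaling and for the fit without the 3 libraries apply here too. FLM, a repressor of flowering, fell under both scalings: it was at 47.3 ± 4.54 FPKM (SD, n = 3) in the wild type at 22 °C and 29.6 ± 2.01 at 38 °C, and at 48.9 ± 7.67 and 29.5 ± 2.06 FPKM in the mutant. Its log2 changes were -0.77 (SE 0.10, adjusted p = 2.84e-04) and -0.83 (SE 0.10, adjusted p = 3.72e-04). AGL24, a promoter of flowering that AP1 represses, fell under both scalings as well, from 4.14 ± 0.683 to 1.62 ± 0.275 FPKM in the wild type and from 4.70 ± 1.17 to 1.60 ± 0.803 FPKM in the mutant, where the call was lost without the 3 libraries that stood apart (adjusted p = 0.0604). The gene that rose in both genotypes was AGL19, which was at 0, 3 and 12 counts in the wild type at 22 °C and 59, 76 and 100 counts at 38 °C, and at 0 counts in all 3 mutant libraries at 22 °C and 39, 38 and 36 counts at 38 °C. Its wild-type call was lost when replicate 2 of the wild type at 22 °C (adjusted p = 0.0663) or replicate 3 of the heated wild type (0.0568) was left out.

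Of 14 genes regulated by the organ identity factors, heat lowered 1 in wild-type flowers and 5 in mutant flowers, with 0 rising in either, under the trimmed mean scaling, and the medians were -0.22 and -0.55. With scaling on reference genes 3 rose and 1 fell in the wild type and 2 fell in the mutant. Without the 3 libraries that stood apart 1 rose and 3 fell in the wild type and 2 fell in the mutant, and with DESeq2 1 rose and 3 fell in the wild type. The all-gene values given above for each scaling and for the fit without the 3 libraries apply here too. With DESeq2 4646 of 23585 genes rose and 4268 fell in the wild type. HEC2, a carpel transcription factor gene, fell under both scalings, from 4.01 ± 1.44 to 1.35 ± 0.309 FPKM (SD, n = 3) in the wild type and from 6.13 ± 2.00 to 2.75 ± 0.606 FPKM in the mutant, with log2 changes of -1.66 (SE 0.33, adjusted p = 0.0032) and -1.26 (SE 0.33, adjusted p = 0.0168). The mutant call was lost without mutant replicate 2 at 22 °C (adjusted p = 0.0758), replicate 2 of the heated mutant (0.0569) or its replicate 3 (0.0571). It was also lost without the 3 libraries that stood apart (adjusted p = 0.0739). The other 4 that fell in the mutant were NAP, a NAC factor gene activated by AP3 and PI (-2.11), JAG, a gene of organ growth (-0.60), INO, a gene of the ovule integument (-0.52), and VDD, a gene of female gametophyte development (-0.61). JAG, INO and VDD had adjusted p of 0.152, 0.209 and 0.132 with scaling on reference genes, and of 0.142, 0.186 and 0.134 without mutant replicate 2 at 22 °C, and leaving out some other single libraries also ended these calls.

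None of the genes of these 3 lists passed between the genotypes at 22 °C in edgeR or DESeq2, with 1, 4 and 0 genes at an unadjusted p below 0.05 in edgeR. At 38 °C 9.62% of all genes tested were called between the genotypes. There, SEU (-0.34) and EMF1 (-0.35) among the upstream genes, SOC1 (-0.43) among the other MADS-box genes and NAP (-2.79) among the regulated genes were lower in the mutant. The sign was the same when scaled on reference genes. These counts depended on the fit: of the upstream genes 0 were higher and 2 lower in edgeR, 3 and 3 with DESeq2, 1 and 0 with limma, 2 and 1 without the 3 libraries that stood apart, and 0 and 0 with the replicate block. SEU, EMF1 and SOC1 had adjusted p of 0.0649, 0.112 and 0.0731 with limma on log2(FPKM + 1) and of 0.0594, 0.0953 and 0.0854 with the replicate block. Their calls were also lost when any of several single libraries was left out, with the highest adjusted p for SEU (0.124) and SOC1 (0.173) without replicate 1 of the heated wild type and for EMF1 (0.150) without replicate 2 of the heated mutant. NAP was at 2.85, 3.11 and 2.35 FPKM in the wild type at 22 °C and at 8.26, 4.01 and 7.60 FPKM at 38 °C. In the mutant it was at 7.18, 2.33 and 2.32 FPKM at 22 °C and at 0.512, 0.968 and 1.46 FPKM at 38 °C, so that at 38 °C each mutant library lay below each wild-type library, while AP3 and PI overlapped between the genotypes. The difference of its heat responses was -3.28 (SE 0.70, edgeR adjusted p = 0.0473), NAP being the single gene of the 3 lists to pass. That call was lost in 15 of 22 alternative fits, with adjusted p up to 0.124.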

How the data were processed

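Polyadenylated RNA from flowers was made into dUTP libraries and read in pairs, per the labels' protocols. Whether counting used strand is not stated. Tools in the submitters' processing notes are cutadapt 1.9, HISAT2 2.0.4 and StringTie 1.3.4d, with TAIR10 as genome. The deposited expected counts are estimated counts, not scaled to depth, and how the authors made them is not stated. In single-transcript genes 47.2% of values from 1 to 20 are multiples of 4, against 25% without a pile-up, so no counting interval was drawn. The FPKM values were deposited by the authors and scale to transcript length and depth.

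The rounded counts went into edgeR 4.0.16 under R 4.3.3 (quasi-likelihood, 1 mean per group, 12 libraries, trimmed mean of M-values, filterByExpr minimum count 10). This kept 23585 genes and removed 4130, with Benjamini-Hochberg adjustment over all of them and a threshold of 0.05. The coefficient of biological variation was 25.1%. Intervals are 95% intervals of the fit, and p-values measure only the spread between these libraries. Alternatives used DESeq2 1.42.0, limma 3.58.1 on log2(FPKM + 1), scaling on 10 reference genes, no filter and omitted libraries. Each of the 23 alternative fits covers all genes.

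The 9 genes and the gene lists were chosen with earlier results of these data known. Named genes are the 9, XBAT31, any gene of the lists, and for AP1, AP3, AG and SEP3 the 3 genes with a symbol nearest in profile. Sequences came from the TAIR10.1 annotation, matched by locus tag.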

Additional observations from a re-analysis of the deposited data

Results flagged for a closer look

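The response of NAP to heat differed between the genotypes by a test of the difference itself, mutant minus wild type, with a log2 value of -3.28 (SE 0.70, edgeR adjusted p = 0.0473). NAP was at 2.77 ± 0.386 and 6.62 ± 2.28 FPKM (SD, n = 3) in the wild type at 22 and 38 °C, a log2 change of 1.16 that did not pass (edgeR adjusted p = 0.0901), and it fell from 3.94 ± 2.80 to 0.981 ± 0.476 FPKM in the mutant (-2.11, adjusted p = 0.0118). Of the mutant libraries at 22 °C, replicate 1 was at 7.18 FPKM and the others at 2.33 and 2.32 FPKM. The difference was -3.37 (adjusted p = 0.0287) with scaling on reference genes, -3.07 (adjusted p = 0.107) with the replicate block, -2.18 (adjusted p = 0.0545) with limma on log2(FPKM + 1) and -3.52 (adjusted p = 0.0695) without the 3 libraries that stood apart. With 1 library left out it ran from -3.66 to -2.51, and it passed only without mutant replicate 2 or replicate 3 at 22 °C, with adjusted p up to 0.124 otherwise.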

How the results depend on the processing

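Of 45 results of the 9 genes (9 genes, 5 comparisons), 38 kept their direction or stayed uncalled and kept their side of the threshold under each alternative run; over 1026 alternative values, 16 calls were lost, 5 gained and 0 reversed, and the genes concerned are named beside their results. Of the 9, 1 was called with heat in the wild type: this was 2 without the 3 libraries that stood apart, 0 at a change of at least 2-fold, and 1 to 2 with 1 library left out. With scaling on reference genes the count was also 1, but of another gene: SEP4 rose and the call of SEP2 was lost. In the mutant 4 were called: this was 2 with scaling on reference genes, 1 without the 3 libraries, 0 at 2-fold, and 1 to 4 with 1 library left out. Over all genes, 7241 calls with heat in the wild type became 1650 at 2-fold, and 5875 in the mutant became 3721 with only the groups compared and 1077 at 2-fold. Between genotypes at 22 °C, 45 calls became 247 with DESeq2 and 25 to 52 with 1 library left out. At 38 °C, 2269 became 4028 with DESeq2, 405 at 2-fold and 1016 to 2713 with 1 left out. The 374 differences of heat responses became 1820 with DESeq2, 611 with reference genes, 24 without the 3 libraries, 112 at 2-fold and 60 to 499 with 1 left out. Of the calls with heat in the wild type 46.6% were higher, against 88.1% with scaling on reference genes, and in the mutant 45.4% against 83.5%.

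Replicate numbers did not pair the libraries: same-numbered libraries of compared groups correlated in their deviations at -0.25 to 0.03, and the own number correlated best in 2 of 24 cases. With the replicate block the 374 differences of heat responses became 128, while 1 and 4 of the 9 genes were called with heat and 0 in the other comparisons. CAL and SEP4 rest on the lowest counts, and AP1 and CAL on the widest spread, so small changes of these were not detectable here.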
